A study of Homo sapiens with 8 samples.

Results

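Trophectoderm, the outer layer of the blastocyst that gives rise to the placenta, is specified by a small set of transcription factors, and 10 of their genes are described here: CDX2, GATA2, GATA3, TFAP2A, TFAP2C, TEAD1, TEAD4, HAND1, GCM1 and ELF5. For each gene, every peak of SOX2, OCT4 or NANOG was taken that the deposited lists name with that gene at a distance of at most 50 kb between the edge of the peak and the gene's transcription start. This gave 191 of 201619 peaks, near 10 of the 19629 genes named in the lists. The peaks come from chromatin immunoprecipitation with sequencing (ChIP-seq) in 2 human cell lines. H9 was derived from an embryo (embryonic stem cells) and NT2/D1 from a germ cell tumour (embryonal carcinoma cells). The labels name no treatment or genetic change in either line. Each line had 1 library for each of the 3 factors and an IgG control, so there was no replicate spread to judge a difference by, and libraries were not tested against each other. The lists hold no RNA measurement, so whether the genes or any cell type markers were expressed was not measured here.

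In the early embryo the TEAD factors, together with the Hippo-regulated cofactor YAP1, switch on CDX2 and GATA3 in outer cells, and CDX2, the GATA factors and the AP-2 factors (TFAP2A, TFAP2C) then establish the trophoblast programme. GCM1 and HAND1 act in later trophoblast cells, and ELF5 acts in trophoblast stem cells. In the inner cells OCT4, SOX2 and NANOG maintain pluripotency, and OCT4 and CDX2 are known to restrain one another.

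Unique tags per library numbered 54046559 to 77649240 for H9 but 10218752 to 23160564 for NT2/D1. The settings and controls of peak calling differed between the lines. The median peak held 32 to 46 tags in H9 and 7 to 11 tags in NT2/D1. Absence from an NT2/D1 list therefore does not show that a site was unbound. Tag counts, folds over background and scores are the authors' values for each peak. To place a peak, its score percentile is given, which is its rank by score within its own list, where 100 is the strongest peak. Folds were computed with different controls and settings in the 2 lines and are not on a common scale between them. Within NT2/D1 the header of the OCT4 list also gave other IgG tag totals and another model fold (5, against 3 for SOX2 and NANOG). Its folds and calls are therefore not on a common scale with those of the other factors. The labels name a single IgG library for NT2/D1, so the source of the other totals is not known. Where a library had several peaks in a region, the strongest is given.

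All 10 genes had peaks in both lines, and H9 held 116 of the 191 peaks. In H9, SOX2 peaks lay near 8 of the 10 genes, OCT4 peaks near all 10 and NANOG peaks near 9. Over all genes named in the lists the shares were 33.6%, 55.4% and 54.2%. In NT2/D1 the counts were 5, 10 and 8 genes, against 55.1%, 75.7% and 55.3% of all genes, so the NT2/D1 SOX2 count was near its background. The H9 lists gave 28 SOX2, 55 OCT4 and 33 NANOG peaks near the 10 genes, the NT2/D1 lists 14, 30 and 31. The mean number of H9 peaks per gene was 2.80 for SOX2, 5.50 for OCT4 and 3.30 for NANOG at the 10 genes, against 0.503, 1.02 and 1.0 over all genes. For NT2/D1 the means were 1.4, 3.0 and 3.1, against 1.22, 1.67 and 1.21. The median NT2/D1 SOX2 number was 0.500 at the 10 genes and 1 over all genes, so it was not raised. The NT2/D1 NANOG median was 1.0 in both, and TEAD4 and GATA2 held 12 and 8 of the 31 NANOG peaks. For NT2/D1 OCT4 the median was 2.5 at the 10 genes and 1.0 over all genes. The lists name only the nearest gene in each direction, so a gene without close neighbours can collect more peaks, and the part of this in the counts was not tested. Of the 116 H9 peaks 15, and of the 75 NT2/D1 peaks 10, lay nearer to the start of another gene.

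**Figure D1:**
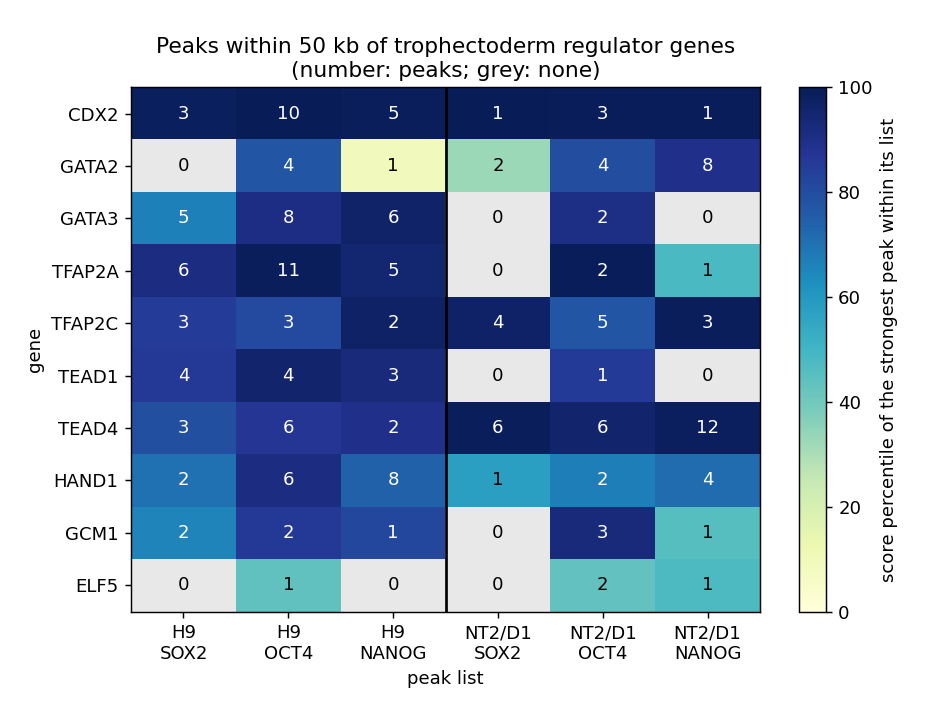
Number of peaks within 50 kb of each gene (rows) in each of the 6 peak lists (columns); colour gives the score percentile of the strongest of these peaks within its list, and grey marks genes with no peak. CDX2 is dark in all 6 lists, with percentiles of 98.8 to 99.9, while ELF5 has between 0 and 2 peaks in each list.

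SOX2, OCT4 and NANOG met at most of these genes in H9. When peaks of all 6 lists that overlapped by at least 1 bp were merged, the 191 peaks fell into 110 regions. In H9, the 3 factors shared a region at 8 of the 10 genes (17.2% of all genes), namely CDX2, GATA3, TFAP2A, TFAP2C, TEAD1, TEAD4, HAND1 and GCM1. GATA2 and ELF5 had none. In NT2/D1, 3 genes had such a region (5.84% of all genes): CDX2, TFAP2C and TEAD4. In each of these 3 a single region held peaks of all 6 lists (3.22% of all genes). The authors' FDR of the NT2/D1 SOX2 peaks in these regions was 64.4% at CDX2, 22.3% at TEAD4 and 15.3% at TFAP2C. By score these 3 peaks stood at percentiles 99.9, 99.1 and 96.8 of their list. With an FDR of at most 5% no gene (0 of 10) kept all 3 factors in NT2/D1, and within 10 kb 1 gene did, CDX2. In the NT2/D1 SOX2 and NANOG lists higher scores went with higher FDR, so the FDR limit removes their strongest peaks.

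CDX2, the homeobox gene that marks the trophectoderm, had the highest-scoring peak of the 10 genes in each of the 6 lists. They met in a region 2.13 kb downstream of the start at its nearest edge, on chromosome 13 (hg19 chr13:28539011-28541186). In H9 the NANOG peak there held 299 tags (fold 23.6), the SOX2 peak 244 (fold 16.7) and the OCT4 peak 162 (fold 14.2). In NT2/D1 the OCT4 peak held 69 tags (fold 13.9), the SOX2 peak 63 (fold 28.6) and the NANOG peak 46 (fold 17.8). All 6 peaks were in the upper end of their lists, at percentiles from 98.8 to 99.7 in H9 and from 99.6 to 99.9 in NT2/D1. Their summits lay within 178 bp.

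A weaker site covered the CDX2 start in H9 and was not called in NT2/D1. There the NANOG peak ran from 17 bp downstream to 614 bp upstream of the hg19 start, the OCT4 peak from 3 to 603 bp upstream and the SOX2 peak from 46 to 652 bp upstream. They held 33, 52 and 39 tags, with folds of 3.41, 5.20 and 4.19. The OCT4 peak stood at percentile 78.0, and the NANOG and SOX2 peaks at 32.7 and 19.2. OCT4 had the most peaks at CDX2, with 10 in H9, the outermost at 6995 bp downstream and 9462 bp upstream of the start. A further region with all 3 H9 factors, 6.23 kb downstream, held 71 SOX2, 123 OCT4 and 108 NANOG tags, and 9 OCT4 tags in NT2/D1.

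Peaks overlapped a start at CDX2 and at TFAP2A. The CDX2 promoter is shown because it was the one window among those available for these genes that held both an octamer and a SOX core, with matches to their motifs in capitals. RefSeq promoter windows of GRCh38.p14 were searched on both strands in the 250 bases before each start for the octamer bound by OCT4 and related POU factors (ATGCAAAT), the SOX core (ATTGTT, on the other strand AACAAT), the composite SOX-octamer element and the homeodomain core TAATGG. The strand shown is that of the gene.

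CDX2, chr13:27969316-27969565, minus strand: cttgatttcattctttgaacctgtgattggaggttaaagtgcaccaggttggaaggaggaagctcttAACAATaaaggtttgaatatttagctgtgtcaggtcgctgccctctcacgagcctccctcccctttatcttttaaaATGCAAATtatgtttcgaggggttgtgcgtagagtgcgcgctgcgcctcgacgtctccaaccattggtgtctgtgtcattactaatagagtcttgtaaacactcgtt

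HAND1, chr5:154478228-154478477, minus strand: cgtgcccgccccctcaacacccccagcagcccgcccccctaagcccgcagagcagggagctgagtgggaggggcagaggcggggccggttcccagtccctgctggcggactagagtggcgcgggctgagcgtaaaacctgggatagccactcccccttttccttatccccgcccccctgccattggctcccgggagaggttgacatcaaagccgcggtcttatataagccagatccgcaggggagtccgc

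The CDX2 window held the octamer 107 to 100 bases before the start and the SOX core 183 to 178 bases before it, and these matches did not overlap. Of 35116 windows, 1.63% held the octamer, 8.98% the SOX core, 0.248% both, 5.90% the homeodomain core and 0.00285% the composite. The HAND1 window, shown because HAND1 peaks lay beside the start without covering it, held none of the 4 motifs. The windows available covered 7 of the 10 genes in 14 windows, and apart from CDX2 a single GATA3 window held a match, to the SOX core. The start used in GRCh38.p14 was not placed on hg19, so the distance between these letters and the peak summits was not worked out. A match describes the letters and does not show binding.

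TFAP2A and TFAP2C encode AP-2 alpha and AP-2 gamma, which act in trophoblast and in germ cell and surface ectoderm lineages. TFAP2A had the largest number of H9 peaks, 22 in all, of which 11 were OCT4 peaks. Its strongest region lay among its alternative starts (chr6:10414600-10418182) and overlapped one of them, with 101 SOX2 tags (fold 11.5), 276 OCT4 tags (fold 10.7) and 146 NANOG tags (fold 20.1) in H9. In NT2/D1 the same region held 2 OCT4 peaks, the stronger with 52 tags, a fold of 21.0 and percentile 99.5, while SOX2 and NANOG were not called. The strongest summits of the 4 lists lay within 9 bp. The other TFAP2A region called in both lines covered another start (chr6:10412012-10412658), with an H9 SOX2 peak of 43 tags and an NT2/D1 NANOG peak of 9 tags.

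TFAP2C differed in that its shared site was distant. The region with all 6 lists lay 32.3 kb upstream of the start (chr20:55170569-55172040). It held 114 SOX2 tags (fold 5.76), 75 OCT4 tags (fold 4.71) and 182 NANOG tags (fold 16.5) in H9. In NT2/D1 it held 29, 18 and 43 tags, with folds of 6.23, 5.94 and 9.86. NANOG had the highest percentile there in both lines, at 96.9 in H9 and 99.2 in NT2/D1. A second region with all 3 H9 factors, 7.11 kb downstream, held an NT2/D1 OCT4 peak of 13 tags. This peak did not overlap the H9 OCT4 peak.

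GATA2 and GATA3 encode zinc finger factors that bind the same core motif, and their peaks were unlike. GATA3 had 19 peaks in H9 and 2 in NT2/D1. The H9 peaks upstream of the GATA3 start all lay nearer to the start of another gene. Its strongest region, 8.10 kb downstream of the start (chr10:8104763-8107038), held 63 SOX2 tags (fold 5.85), 57 OCT4 tags (fold 7.12) and 216 NANOG tags (fold 10.2) in H9. The NANOG peak stood at percentile 96.3. Its summit lay 8.63 kb downstream of the start, whereas the summits of these SOX2 and OCT4 peaks lay at 9.92 and 9.91 kb. Lower-scoring SOX2 and OCT4 peaks of the region had summits at 8.91 and 8.58 kb. In NT2/D1 an OCT4 peak of 9 tags (fold 13.7) lay in this region, and GATA3 had no peak of SOX2 or NANOG in that line. The other H9 sites near GATA3 held 1 or 2 factors each.

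GATA2 had 5 peaks in H9 and 14 in NT2/D1, and no SOX2 peak in H9. Its strongest H9 peak was an OCT4 peak 635 bp upstream of a start, with 58 tags, a fold of 4.38 and percentile 77.0. In NT2/D1 that region (chr3:128212395-128213623) held a SOX2 peak of 10 tags and 2 NANOG peaks of 12 and 8 tags, and no OCT4 peak. It was the 1 GATA2 region called in both lines. The 14 NT2/D1 peaks of GATA2 held 8 to 14 tags each, and 10 of their 11 regions were not called in H9. Those at 12.2 kb or more from a GATA2 start lay nearer to the start of another gene.

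TEAD1 and TEAD4 encode DNA-binding partners of YAP1, and TEAD4 is needed for trophectoderm in the mouse embryo. TEAD1 had 3 regions with all 3 factors in H9, all downstream of its start, at 5.69, 12.8 and 48.7 kb. The one at 12.8 kb (chr11:12708778-12710285) held 107 SOX2 tags (fold 6.64), 72 OCT4 tags (fold 6.65) and 85 NANOG tags (fold 13.7), and an NT2/D1 OCT4 peak of 9 tags. That was the single NT2/D1 peak assigned to TEAD1, and it did not overlap the H9 OCT4 peak. The 3 peaks at the farthest site lay just inside the limit of 50 kb, at 48.7 to 49.6 kb, and the nearest peaks outside it were a CDX2 peak at 51.5 kb and an ELF5 peak at 52.6 kb.

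TEAD4 had 11 peaks in H9 and 24 in NT2/D1. A region 36.4 kb upstream of the start (chr12:3030886-3032116) held peaks of all 6 lists. It had 58 SOX2 tags (fold 7.61), 27 OCT4 tags (fold 6.24) and 72 NANOG tags (fold 12.5) in H9, and 38, 27 and 25 tags in NT2/D1 with folds of 19.8, 9.50 and 12.3. The NT2/D1 SOX2 peak stood at percentile 99.1, and summits of the 6 lists lay within 18 bp. Another region, 3.18 kb downstream, held all 3 factors in H9, with 64 SOX2, 79 OCT4 and 82 NANOG tags, and 37 OCT4 tags in NT2/D1. A region 38.7 kb downstream was weak in H9, with SOX2 at percentile 3.38 and OCT4 at 28.0, and strong in NT2/D1, with OCT4 at 95.5 and NANOG at 98.1. Both TULP3 and TEAD4 are named for the upstream region, and TULP3 is the nearer.

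The surroundings of TEAD4 also held many NT2/D1 peaks. Between 50 kb and 1 Mb from the TEAD4 start, NT2/D1 had 5.79 SOX2, 3.79 OCT4 and 6.79 NANOG peaks per 100 kb, and H9 had 0.316, 0.842 and 1.21. Within 50 kb on each side, NT2/D1 had 6, 6 and 12 peaks by position, so the SOX2 number near the gene was close to that of the flanks, while the OCT4 and NANOG numbers were above it. The part of the surrounding density in the TEAD4 count was not tested. On the first 30 Mb of chromosome 12 lay 1.90 to 3.67% of NT2/D1 peaks and 1.07 to 1.26% of H9 peaks. Of the 20 TEAD4 regions of NT2/D1, 17 were not called in H9.

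HAND1 and GCM1 act later in trophoblast development. HAND1, a basic helix-loop-helix gene, had 16 peaks in H9 and 7 in NT2/D1. All 3 H9 factors met 1.04 kb upstream of its start, with 48 SOX2, 38 OCT4 and 36 NANOG tags. They met again farther upstream, where peaks of 122, 106 and 63 tags began at 4.61, 4.85 and 5.32 kb. A lower-scoring OCT4 peak of 62 tags extended this second region to 3.83 kb. Folds at these 2 regions were modest, from 3.23 to 5.01. Neither region was called in NT2/D1.

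GCM1, which drives fusion of trophoblast cells, had a region 28.3 kb downstream of its start (chr6:52984449-52985280) with 59 SOX2, 55 OCT4 and 60 NANOG tags in H9. In NT2/D1 it held an OCT4 peak of 12 tags at percentile 92.2 and a NANOG peak of 11 tags at percentile 45.4. ELF5, an ETS factor gene of trophoblast stem cells, had the fewest peaks. An H9 OCT4 peak of 29 tags lay 35.3 kb upstream of its start, and the 3 NT2/D1 peaks held 5 to 10 tags. None of the 4 ELF5 regions was shared by 2 lists.

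**Figure D2:**
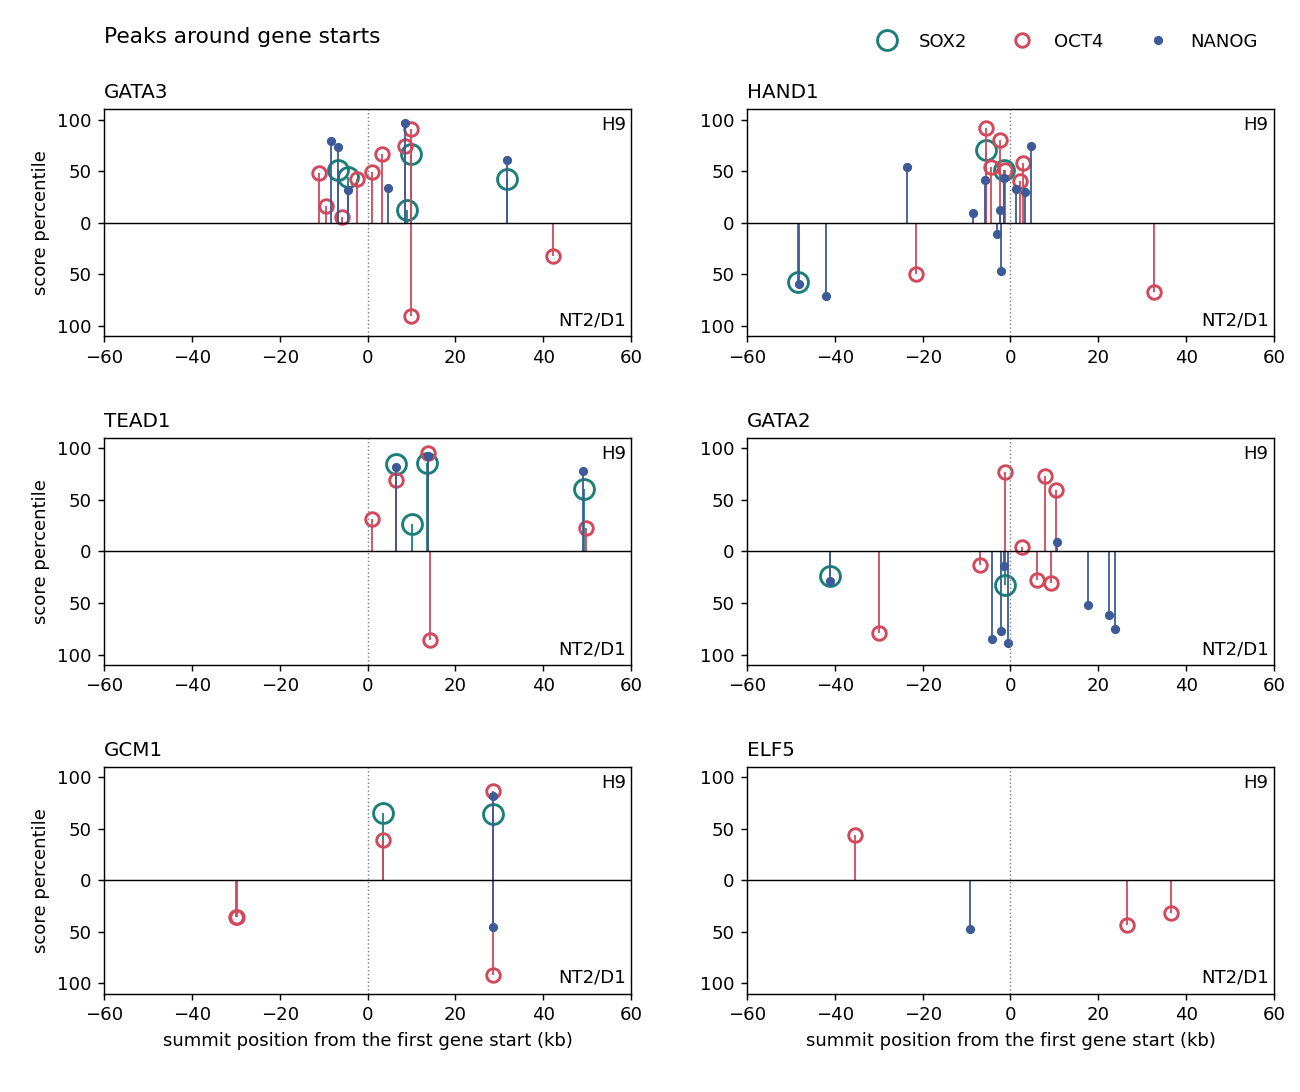
Summits of peaks around GATA3, HAND1, TEAD1, GATA2, GCM1 and ELF5, by position from the most upstream start in kb (x axis, negative upstream) and score percentile within the list (y axis, H9 upward, NT2/D1 downward); large rings are SOX2, small rings OCT4 and dots NANOG. GATA3 and TEAD1 have 19 and 11 peaks in H9 against 2 and 1 in NT2/D1, and GATA2 has 5 against 14.

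Sites with all 3 factors in H9 were more often called in NT2/D1 than sites with fewer, near these genes as over all regions. Of the 64 regions with an H9 peak, 14 held an NT2/D1 peak (21.9%, 95% Wilson interval 13.5 to 33.4), against 24.5% of all H9 regions. The number was 9 within 10 kb and 7 with a reciprocal overlap of 50%. Among the 15 regions with all 3 H9 factors, 10 held an NT2/D1 peak (66.7%, interval 41.7 to 84.8), against 59.4% of all such regions. With 2 H9 factors it was 2 of 15 (13.3%, interval 3.74 to 37.9), against 33.2%, and with 1 factor 2 of 34 (5.88%, interval 1.63 to 19.1), against 14.5%. The intervals cover counting error only, and each includes the value over all regions.

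The NT2/D1 OCT4 list accounted for all 10 of the shared regions with 3 H9 factors. SOX2 was called in 3 of them and NANOG in 4. The NT2/D1 OCT4 peak did not overlap the H9 OCT4 peak at TFAP2C 7.11 kb downstream or at TEAD1 12.8 kb downstream. Summits in these regions spread over 814 and 525 bp, so a shared region need not be the same OCT4 site. Over all 8196 regions with 3 H9 factors, NT2/D1 OCT4 was called in 53.0%, SOX2 in 27.8% and NANOG in 22.3%. The 5 regions with no NT2/D1 peak were the CDX2 start, both HAND1 regions and the TEAD1 regions at 5.69 and 48.7 kb. The titles and source names of the NT2/D1 OCT4 and NANOG libraries are exchanged in the labels, so their names rest on the titles.

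**Figure D3:**
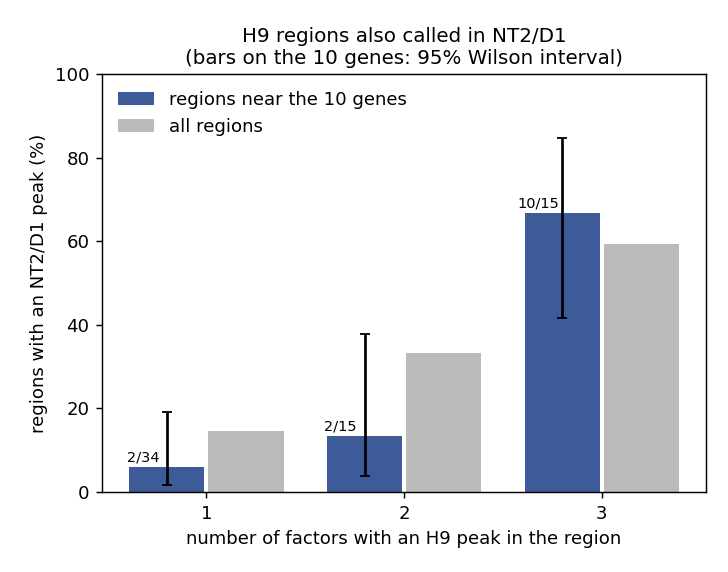
Share of H9 regions that also held an NT2/D1 peak (y axis, percent), by the number of factors with an H9 peak in the region (x axis), for regions near the 10 genes (blue, with 95% Wilson intervals and counts) and for all regions (grey). The share near the 10 genes is 66.7% with 3 factors and 5.88% with 1 factor, and each interval includes the grey value beside it.

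In the other direction, 60 regions held an NT2/D1 peak, and 14 of them held an H9 peak (23.3%, interval 14.4 to 35.4), against 12.8% of all NT2/D1 regions. This interval covers counting error only and takes regions as independent, though 20 of the 60 lay at TEAD4, 11 at GATA2 and 9 at TFAP2C. It is therefore no test of a difference. The 10 genes also held more H9 peaks per gene than all genes, and the part of this in the overlap was not tested. The 46 regions called in NT2/D1 and not in H9 held 5 to 43 tags, and 3 of them were called by 2 lists. TEAD4, GATA2 and TFAP2C together had most of them, with 17, 10 and 7. The flanks of these 3 genes were also rich in NT2/D1 peaks. At TFAP2C 4 SOX2, 5 OCT4 and 3 NANOG peaks lay within 50 kb by position, against 3.26, 2.74 and 3.32 per 100 kb of flank. At GATA2 there were 3, 5 and 10, against 1.89, 3.21 and 3.47. Rich flanks were not limited to these 3 genes. The CDX2 flanks held 2.16, 2.42 and 1.58 per 100 kb, and CDX2 had 1 region called in NT2/D1 and not in H9. The part of flank density in these region counts was not tested.

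Peaks in H9 were denser near most of these genes than in their surroundings, though not for SOX2 and NANOG at ELF5 and GATA2 or for NANOG at GCM1. At ELF5 no H9 peak of SOX2 or NANOG (0 of each) lay near the gene, and the flanks held 0.737 and 0.895 per 100 kb. At GATA2 the SOX2 and NANOG numbers were 0 and 1, against 0.684 and 1.11, and at GCM1 the NANOG number was 1, against 1.47. The median number within 50 kb on each side was 5 for OCT4 and 3 for both SOX2 and NANOG by position, and the median flank value per 100 kb was 0.974 for OCT4, 0.658 for SOX2 and 1.16 for NANOG. In NT2/D1 the medians near the genes were 4 for OCT4, 0.500 for SOX2 and 2 for NANOG, and those of the flanks 1.48, 0.893 and 0.552. The NT2/D1 flanks varied widely, from 0.0526 NANOG peaks per 100 kb at GATA3 to 6.79 at TEAD4, while the NANOG flanks of H9 ranged from 0.789 at TFAP2C to 1.74 at CDX2. At GATA3, which had no NANOG peak in NT2/D1, the flanks of that line also held few. The part of the surrounding peak density in the counts near these genes was likewise not tested.

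**Figure D4:**
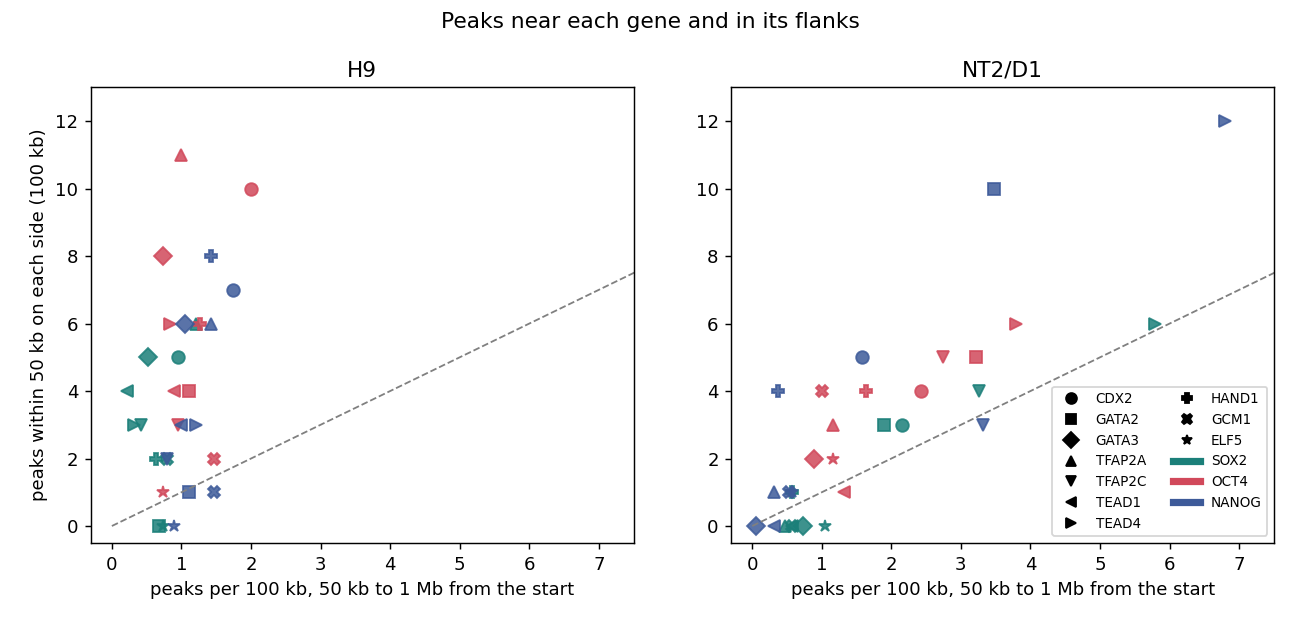
Peaks within 50 kb on each side of the most upstream start (y axis, count over 100 kb) against peaks per 100 kb between 50 kb and 1 Mb from it (x axis), in H9 (left) and NT2/D1 (right); symbols give genes, colours factors, and the dashed line equal density. TEAD4 lies farthest to the right in NT2/D1, with flanks of 3.79 to 6.79, and most H9 points lie above the line.

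Peaks also lay closer to the starts of these genes in H9. Of the 116 H9 peaks, 46.6% lay within 5 kb of a start, and of the 75 NT2/D1 peaks 25.3%. Among all peaks within 50 kb of a gene the H9 shares were 36.7% for OCT4, 31.5% for NANOG and 25.2% for SOX2, and for the 10 genes 50.9%, 42.4% and 42.9%. The NT2/D1 shares in the same order were 33.9%, 23.8% and 21.7% among all such peaks and 20.0%, 32.3% and 21.4% for the 10 genes. Among all peaks the distance was that to the nearer gene. For the 10 genes it was that to the member, although 15 H9 and 10 NT2/D1 peaks lay nearer to another gene. The 2 measures are therefore not quite alike, and the shares of the 10 genes can only be lower for it. All 4 peaks that overlapped a start were H9 peaks, at CDX2 and TFAP2A.

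Lists of related genes were counted in the same way. Of 18 other trophoblast genes, the 3 factors shared a region at 6 in H9 and at 3 in NT2/D1, and at EOMES and TBX3 in both lines. Over all genes the shares were 17.2% in H9, 5.84% in NT2/D1 and 3.68% in both lines. EOMES, a T-box gene of trophectoderm and mesendoderm, had its strongest peaks 5.78 to 6.24 kb from its start, with an H9 fold of 27.4 and an NT2/D1 fold of 28.2 for NANOG, of 13.3 and 27.1 for SOX2, and of 4.85 and 7.98 for OCT4. Of 13 paralogues of the 10 genes, such as TFAP2D, GATA6 and HAND2, 6 had such a region in H9 and 0 in NT2/D1. TFAP2D led them, with an H9 OCT4 peak of 71 tags at percentile 91.0.

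Of 12 Hippo pathway genes and TEAD cofactors named in the lists, 2 had such a region in H9 and 0 in NT2/D1. These counts were near the shares over all genes (17.2% and 5.84%). WWTR1, a cofactor related to YAP1, led with an NT2/D1 OCT4 peak of 20 tags (fold 15.7). YAP1 itself had NANOG peaks in H9 and no other. Among 10 mesendoderm regulators the counts were 5 and 3, with EOMES, GSC and FOXA2 in both lines, and among 10 genes of differentiated cells 5 and 0, led by APOB, a lipoprotein gene, with an NT2/D1 SOX2 peak of 25 tags at percentile 96.2. The 10 trophectoderm regulators had 8 and 3. These counts describe small lists, some of which share genes, and the differences between them were not tested. In lists this small, a count of 0 in NT2/D1 lies near the 5.84% of all genes.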

How the data were processed

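Each ChIP library had its own peak list, which the authors called with MACS against IgG, per the file headers. No aligner or MACS version is named in the sources used here. Coordinates are hg19, per the submitters' processing notes. The p-value cutoff was 0.001 and the tag size 50, and the band width 2000 for H9 and 200 for NT2/D1 lists, per the file headers. Unique tags of the IgG controls numbered 2937004 of 17173085 for SOX2 and NANOG in NT2/D1, 6479071 of 12359411 for OCT4 in NT2/D1 and 58012070 of 84245266 in H9.

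The deposited count of a peak is its raw ChIP tags. The authors' deposited fold is a ratio to background, and their deposited FDR is in percent. The deposited score has lost its column name and was read as −10 times log10 of the p-value, since its lowest value was 30 in each list. Higher scores went with higher FDR in the NT2/D1 lists of SOX2 and of NANOG (Spearman rho of 1.00 in both).

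Genes and distances were taken from the submitters' added columns, leaving out 531 peaks' gene fields that held a date. Regions were merged with Python 3.11.15 and pandas 2.3.3, checked on simulated data. Intervals are 95% Wilson intervals from scipy 1.17.1. Groups follow the sample titles. All 10 genes were named by rule, as were genes of 5 further lists that had a region with all 3 factors in both lines or the highest percentile of their list; GATA6, HAND2 and YAP1 were added after their values were seen. The genes and lists were chosen with earlier results of these data known. Sequences of peaks were not used here.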

Additional observations from a re-analysis of the deposited data

How the results depend on the processing

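No paired analysis was possible because each factor and line had 1 library, and for the same reason no replicate was left out. Of 103 recomputed counts, 79 stayed within 1.5 times the reported value. These 79 include 6 from exchanging the NT2/D1 OCT4 and NANOG libraries, which only trades their values and so says nothing about stability. The number of genes with all 3 factors in H9 was among the 79 under every alternative run, at 6 to 8.

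With an FDR of at most 5%, H9 had 24 OCT4 and 15 SOX2 peaks near the genes, NT2/D1 had 20 NANOG, 11 OCT4 and 9 SOX2 peaks, and 0 genes had all 3 factors in NT2/D1, where this limit removes the strongest SOX2 and NANOG peaks (the CDX2 SOX2 peak has an FDR of 64.4%). In the upper 50% by score, H9 had 21 NANOG and 17 SOX2 peaks, NT2/D1 had 20 NANOG, 17 OCT4 and 7 SOX2 peaks, and 5 genes had an NT2/D1 NANOG peak. With lists of equal length, NT2/D1 had 7 SOX2 and 16 OCT4 peaks.

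Within 10 kb, NT2/D1 had 3 SOX2, 11 OCT4 and 12 NANOG peaks, 3 genes with a SOX2 peak, 6 with an OCT4 peak and 1 with all 3 factors, CDX2, and 9 H9 regions were also called in NT2/D1. With a reciprocal overlap of 50% these were 7. Assigning peaks to the nearer gene left TFAP2C and CDX2 with all 3 factors in NT2/D1. After the data were seen, the genes were also counted without TEAD4, which left 8 SOX2 and 19 NANOG peaks in NT2/D1, and the shared regions with the NT2/D1 OCT4 list alone, which were 11. Exchanging the NT2/D1 OCT4 and NANOG libraries moves their values to the other name.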
